A study of Mus musculus with 3072 samples.

Results

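Among single bone marrow wells of the sorted population that the labels call MkP, 504 carried Mki67 RNA at 50 CPM or more (CPM being a gene's count scaled to a common column total), and these wells are the subject here. They are 504 of 1289 MkP wells that held at least 20000 gene counts, 1000 to 10000 detected genes and at most 20% mitochondrially encoded counts. MkP columns with counts numbered 1535, and the whole series has 3072 wells. The members were chosen by their Mki67 value, so Mki67 is described without a test, and the 785 other kept MkP wells of the same mice served for comparison. The mice were wild-type C57BL/6 animals that had received barcoded stem cells by transplantation, and all 8 share that history. Of them, 4 were controls taken at week 32 after transplantation, and 4 were platelet-depleted animals taken at week 28. Treatment, week and experiment coincided in every mouse and cannot be told apart. The labels do not name the agent of depletion, the sorting gates or what MkP stands for. Each mouse gave 192 MkP wells on 2 plates, and the mouse was the replicate throughout.

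Mki67 encodes Ki-67, a protein that coats condensed chromosomes and is used across tissues to mark cells that are not at rest. Its RNA is made with that of the mitotic genes, which are switched on late in the cycle, whereas the genes that license and copy DNA are switched on at the entry to S phase. Birc5 encodes survivin of the chromosomal passenger complex, and Aspm a protein of the spindle poles. In the megakaryocyte lineage, progenitors divide before they turn to endomitosis, in which DNA is copied without cell division.

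The 504 wells held Mki67 at a median of 279 CPM, with 10% of them under 91.6 CPM and 10% over 870 CPM. Within mice the median ran from 213 CPM in depleted mouse 3 to 427 CPM in depleted mouse 4, and the control mice lay between 251 and 318 CPM. Of the other wells, 410 (52.2%) had no Mki67 count and 375 (47.8%) had counts under the limit, with a median over all 785 of 0 CPM and 90% of them under 6.26 CPM. The limit therefore fell where wells were few. The 12 wells between 50 and 60 CPM started at 50.7 CPM, had a median of 73 Mki67 reads and a summed mitotic gene level of 3745 CPM. The 13 wells between 40 and 50 CPM ended at 49.8 CPM, had a median of 53 Mki67 reads and a mitotic level of 5566 CPM.

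**Figure D1:**
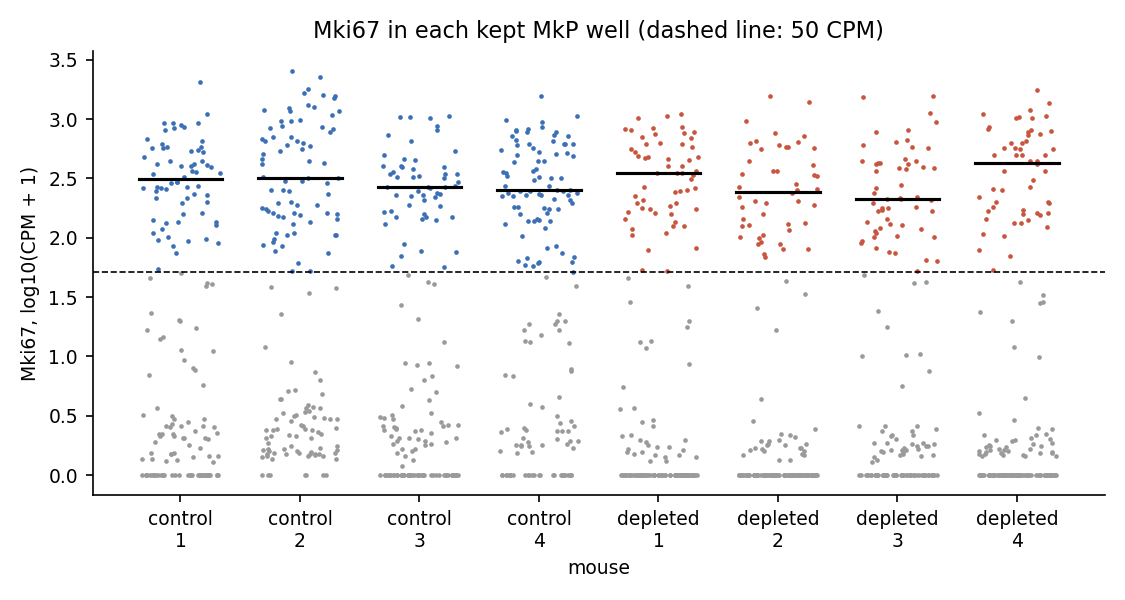
Mki67 in each of the 1289 kept MkP wells, as log10(CPM + 1), by mouse. Coloured points are the 504 wells past 50 CPM (blue control, red depleted), grey points the other wells, and black bars the median of the coloured wells, which lie between 213 and 427 CPM.

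The share of wells past the limit was 41.0%, 50.6%, 36.6% and 53.5% in control mice 1 to 4 and 36.4%, 28.4%, 36.8% and 31.5% in depleted mice 1 to 4. Control mouse 3 stood level with the upper depleted mice, and the other 3 control mice stood above all depleted mice. Control mice averaged 45.4% ± 7.96 and depleted mice 33.3% ± 4.05 (SD over 4 mice each), so depletion lay -12.2 points from control. This did not pass the threshold (exact two-sided permutation p = 0.0571, where 4 against 4 mice cannot go below 0.0286). Control mouse 2 carries a doubt, since the authors' deposited table calls 93 of its wells MkP that are CFU in their names and labels. Those 93 wells were not analysed here, and without control mouse 2 the difference was -10.4 points (exact permutation p = 0.0571). A lower Mki67 level in depleted MkP was known from earlier results of these data, so the difference is no independent support for it. With Birc5 at the same limit in place of Mki67 the shares were 34.98% ± 3.69 and 25.6% ± 4.21, and the groups did not overlap (exact permutation p = 0.0286). With Aspm they were 15.8% ± 3.82 and 9.25% ± 2.33, and with Top2a, another cycle gene, 51.3% ± 5.37 and 40.6% ± 7.73. For Aspm and Top2a the groups overlapped and the difference did not pass (exact permutation p = 0.0571 each). Without control mouse 3, the control mouse that overlapped the depleted mice, the groups lay -15.1 points apart (exact permutation p = 0.0286). Leaving it out fixed that separation in advance, so this p is no further support. With any other mouse left out the exact permutation p was 0.0571 to 0.114. The share of 1 mouse carries counting error, which is not the error of a mean of 4 mice. The exact 95% binomial intervals were 33.3% to 49.0% in control mouse 1 and 21.7% to 35.8% in depleted mouse 2.

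**Figure D2:**
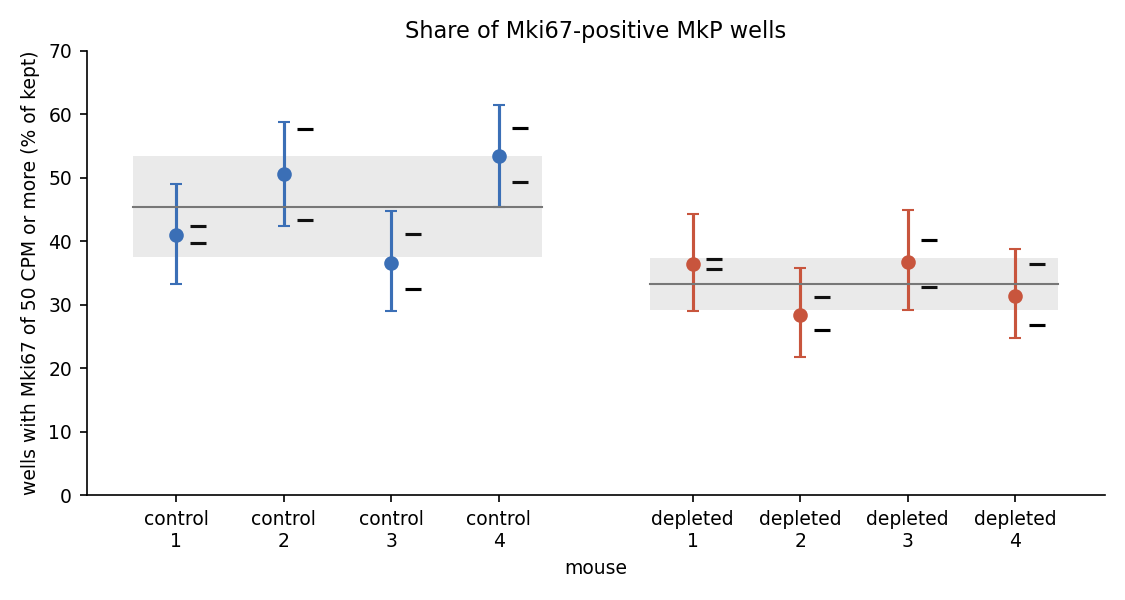
Percentage of kept MkP wells with Mki67 of 50 CPM or more in each mouse (points, with exact 95% binomial intervals that cover counting error), the same on each of its 2 plates (dashes), and the mean ± SD of 4 mice (line and band). Control mouse 3 at 36.6% overlaps the depleted mice, which lie between 28.4% and 36.8%.

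The plates of a mouse differed as well, from 43.4% to 57.7% in control mouse 2 and from 26.9% to 36.5% in depleted mouse 4. Wells with no Mki67 count at all were 4.55% to 30.1% of the kept wells in control mice and 35.5% to 54.4% in depleted mice, and wells with some counts under the limit were 35.7% ± 6.57 against 22.9% ± 4.79 (SD, n = 4 each). The part of these low counts in the comparisons was not tested.

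Depth moved with membership. The median total was 1880746 counts in the members and 1493115 in the other wells, averaged over 8 mice, and was higher in the members in 8 of 8 mice by 387631 ± 154905 counts (SD of the difference, exact sign-flip permutation p = 0.0078 and adjusted p = 0.0234 over 9 measures). When the kept wells of each mouse were ranked by total count and divided into 4 equal sets, 24.1% ± 9.40 of the shallowest and 61.5% ± 9.66 of the deepest set were past the limit (SD, n = 8). After thinning every well to 20000 counts control mice had a share of 46.6% ± 6.58 and depleted mice one of 33.4% ± 4.23, close to the unthinned ones (exact permutation p = 0.0286, groups not overlapping). Members also held more genes at equal depth, with a median of 5290 ± 313 against 4515 ± 343 genes in wells thinned to 100000 counts (SD, n = 8, higher in 8 of 8 mice, exact permutation, adjusted p = 0.0234). Their mitochondrial share was 2.88% ± 0.395 against 2.95% ± 0.423 and lower in 8 of 8 mice, with differences of -0.141 to -0.0327 points (exact permutation, adjusted p = 0.0234). Whether members held more RNA was not tested, since the counts are reads without molecular identifiers, and the part of depth in the other comparisons was not tested. Genes at 100000 counts also differed by treatment. Other wells had medians of 4643 to 4987 genes in control and 4026 to 4469.5 in depleted mice, without overlap. Members had 5158 to 5686 and 4724.5 to 5382 genes, with overlap. The part of gene detection in the share difference was not tested.

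The other cycle markers followed Mki67 well by well. Birc5 stood at 50 CPM or more in 358 members (71.0%) and 31 other wells (3.95%), and Aspm in 153 members (30.4%) and 7 other wells (0.892%). Both were past that level in 149 members, Birc5 alone in 209, Aspm alone in 4 and neither in 142 (28.2%). In 84 members (16.7%) Top2a, the topoisomerase that untangles sister chromatids, was under 50 CPM too. The label of cycling cells is thus carried by Mki67 together with a second marker in most but not all members. Top2a was less restricted than Birc5, at 50 CPM or more in 388 members (77.0%) and 202 other wells (25.7%).

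Summed over the wells of each mouse, Birc5 stood at 315, 264, 300 and 240 CPM in the members of control mice 1 to 4 and at 220, 242, 240 and 287 CPM in depleted mice 1 to 4. In the other wells it stood at 25.9, 5.81, 7.35 and 9.18 CPM in the control and 9.07, 4.93, 11.1 and 10.8 CPM in the depleted mice. The classes did not overlap, and control mouse 1 was the highest of both. The log2 fold change was 4.86 (SE 0.24, edgeR adjusted p = 2.53e-06). Aspm ran from 43.1 to 82.6 CPM in members and from 0.484 to 4.17 CPM in other wells, a log2 fold change of 5.36 (SE 0.44, edgeR adjusted p = 8.28e-05), with the 2 highest member values in control mice 1 and 2. Mki67 itself stood at 340 to 574 CPM in the members and 1.12 to 5.73 CPM in the other wells, as the choice requires.

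Promoters of these genes are shown because genes of the mitotic and the replication programme differ in the short elements near their start sites. Each stretch holds the 150 bases before the start site, 5′ to 3′ on the gene's strand, from the RefSeq annotation of mouse build GRCm38.p6, with capitals for matches on either strand. The letters searched were TTTGAA for the cell cycle homology region (CHR), the CCAAT box by its own name, and TTTCCCGC, TTTGGCGC or TTTCGCGC for E2F. Each set was searched separately, whether or not matches overlapped.
Mki67 (chr7:135716380-135716529, - strand): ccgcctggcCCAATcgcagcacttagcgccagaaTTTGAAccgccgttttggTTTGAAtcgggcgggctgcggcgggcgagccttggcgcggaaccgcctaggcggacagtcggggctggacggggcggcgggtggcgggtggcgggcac
Birc5 (chr11:117849087-117849236, + strand): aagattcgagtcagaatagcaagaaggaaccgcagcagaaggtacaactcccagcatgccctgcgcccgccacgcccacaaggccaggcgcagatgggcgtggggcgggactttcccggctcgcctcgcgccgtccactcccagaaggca
Aspm (chr1:139454623-139454772, + strand): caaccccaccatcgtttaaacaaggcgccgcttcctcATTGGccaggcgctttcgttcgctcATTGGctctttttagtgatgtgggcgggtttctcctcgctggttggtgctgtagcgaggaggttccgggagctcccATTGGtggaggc
Ube2c (chr2:164769779-164769928, + strand): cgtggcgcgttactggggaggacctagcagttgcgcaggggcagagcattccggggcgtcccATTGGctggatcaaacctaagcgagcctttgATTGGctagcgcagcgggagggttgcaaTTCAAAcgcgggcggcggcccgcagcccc
Top2a (chr11:99024190-99024339, - strand): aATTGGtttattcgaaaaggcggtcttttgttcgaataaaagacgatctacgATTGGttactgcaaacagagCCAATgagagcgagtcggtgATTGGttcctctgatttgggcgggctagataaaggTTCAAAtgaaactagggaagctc
Mcm5 (chr8:75109359-75109508, + strand): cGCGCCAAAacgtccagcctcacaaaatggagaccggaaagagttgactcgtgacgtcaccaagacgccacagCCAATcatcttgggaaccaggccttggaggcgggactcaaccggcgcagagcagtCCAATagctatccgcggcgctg
Rrm2 (chr12:24708104-24708253, + strand): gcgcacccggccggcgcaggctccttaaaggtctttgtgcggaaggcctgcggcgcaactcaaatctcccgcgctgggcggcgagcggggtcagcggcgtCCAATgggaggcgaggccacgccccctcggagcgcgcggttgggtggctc
Tk1 (chr11:117826015-117826164, - strand): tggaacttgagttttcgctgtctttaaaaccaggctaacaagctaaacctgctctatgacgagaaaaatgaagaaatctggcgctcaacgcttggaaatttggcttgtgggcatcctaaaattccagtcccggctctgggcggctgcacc

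Tk1 and Rrm2 are shown beside Mcm5 because their stretches lack the E2F letters. The Mki67 stretch holds a CCAAT and a pair of CHR matches, that of Birc5 none of these letters, and that of Aspm CCAAT matches on the reverse strand. Those of Ube2c, the ubiquitin-conjugating enzyme of the anaphase-promoting complex, and Top2a hold CCAAT and CHR letters, and that of Mcm5, a subunit of the replicative helicase, CCAAT and E2F letters. That of Rrm2 holds a CCAAT match, and that of Tk1 none of the letters searched. In windows from 250 bases before to 50 after the start, CHR letters stood in 43 of 74 promoters of the mitotic lists (58.1%), in 8 of 43 of the replication lists (18.6%) and in 17.9% of all 32851 promoters. E2F letters stood in 4 (5.41%), 14 (32.6%) and 1.84%, and CCAAT letters in 62.2%, 55.8% and 37.4%. RefSeq windows were found for 64 of 76 mitotic and 35 of 43 replication genes. Such matches describe letters, not binding.

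To see what else differed, counts were summed over the members and over the other wells of each mouse, giving 16 sums of 86968934 to 200535311 counts, and compared within mice by edgeR's quasi-likelihood test. Apart from Mki67, 865 genes were higher and 415 lower in the members at an adjusted p under 0.05, of 15988 genes tested. The background against which a list is read is therefore 8.01% called, 5.41% higher and 2.6% lower, with a median log2 fold change of -0.04 over all genes. DESeq2 called 1266 higher and 1092 lower genes, so the excess of higher genes was smaller there (53.7% against 67.6% of calls). Against only the wells without any Mki67 count, which were 7 in control mouse 2, 595 genes were called.

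The 10 highest fold changes by the naming rule were those of Cdc25c (log2 fold change 8.02), the phosphatase that activates Cdk1, Hmmr (7.35), a spindle assembly protein, Iqgap3 (6.92), Ube2c (6.90), Pimreg (6.82), Foxm1 (6.78), a transcription factor of late-cycle genes, Pif1 (6.37), a DNA helicase, Mxd3 (6.34), Kif23 (6.22), a kinesin of the central spindle, and Kif2c (5.96), a kinesin that shortens microtubules. The rule took only called genes with the same direction in 8 of 8 mice, so that agreement was set by the choice. Their edgeR adjusted p ran from 5.83e-05 to 0.0206. Hmmr stood at 89.0 ± 11.9 CPM in members and 0.752 ± 0.617 CPM in other wells, and Ube2c at 195 ± 37.7 against 2.19 ± 1.86 CPM (SD, n = 8 each). Pif1 lost its call without depleted mouse 4 (edgeR adjusted p = 0.0515).

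In 3 of the 5 mitotic lists each tested gene rose, and in the other 2 lists 9 of 12 did. All 16 tested mitotic kinases and cyclins rose (median log2 fold change 3.85), with Ccna2 at 314 ± 53.4 against 13.7 ± 5.12 CPM and Ccnb2 at 316 ± 29.9 against 15.3 ± 6.35 CPM (SD, n = 8). All 26 spindle and kinetochore genes rose (median 3.92), among them Cdca8 of the passenger complex (log2 3.42) and Ckap2l (1.94). Of 12 anaphase-promoting genes 9 rose (median 0.82), from Espl1, the separase that cleaves cohesin (5.02), and Cdc20 (3.28) to the complex subunit Anapc5 (0.35). Of 12 cytokinesis genes 9 rose (median 2.78), with the abscission protein Cep55 at a log2 fold change of 5.69, while Rhoa stood at 383 ± 34.5 against 387 ± 35.4 CPM and was not called. All 10 condensation genes rose (median 1.68), including Top2a (2.99), Cdca5 (3.09), Ncapg (3.09) and Ncaph2 (0.47). Mki67 belongs to the same programme, so these counts describe what the choice brings with it and are no independent support for the label.

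Chromatin and cytoskeleton genes followed. Of 12 histone and chromatin genes 10 rose (median 0.85), with the variant histone H2ax at 355 ± 68.5 against 85.7 ± 13.9 CPM, the histone chaperone Asf1b at a log2 fold change of 2.05 and H2az1 at 0.90. Of 15 tubulin and cytoskeleton genes 10 rose (median 0.96), led in level by Tubb5 (2659 ± 304 against 821 ± 83.3 CPM) and Tuba1b (2096 ± 275 against 683 ± 67.0 CPM, SD, n = 8).

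**Figure D3:**
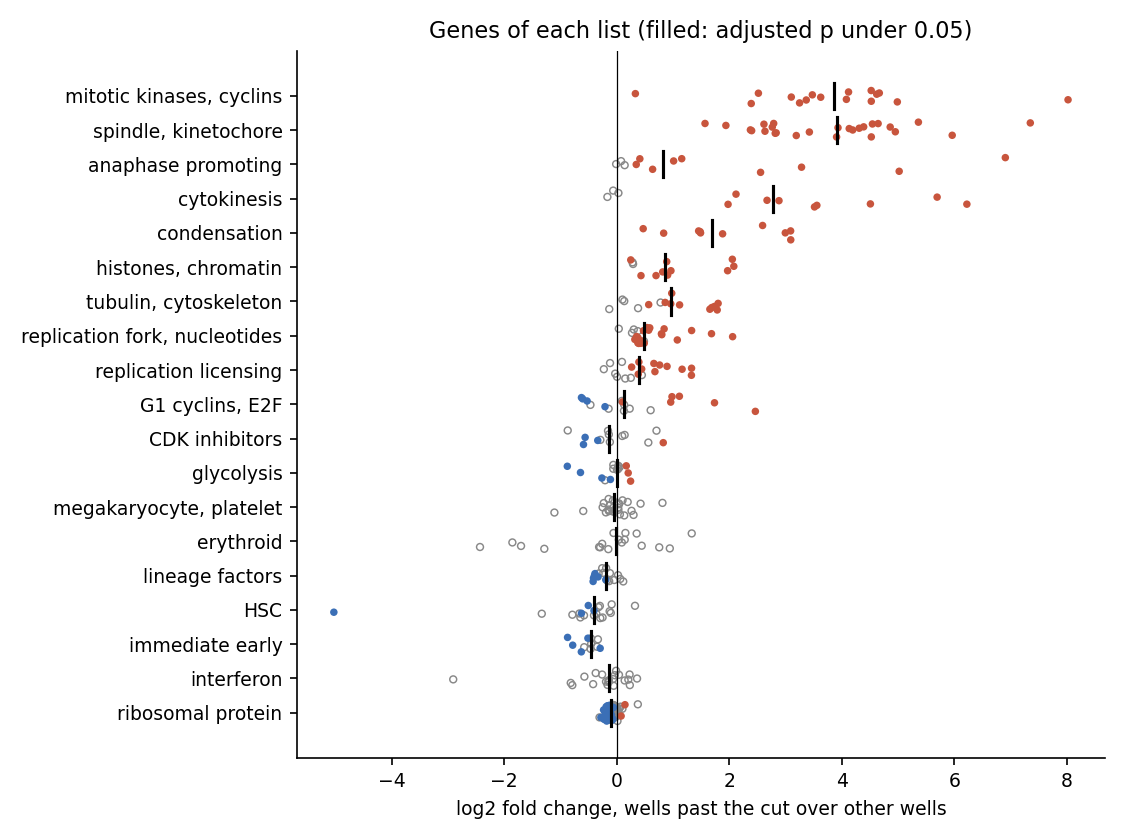
Log2 fold change of members over other wells for the tested genes of 19 lists, from the edgeR fit over 16 sums. Filled points passed an adjusted p of 0.05 (red higher, blue lower), open points did not, and black bars are list medians, which run from 3.92 for spindle genes to -0.47 for immediate early genes.

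Replication genes differed less. Of 24 replication fork and nucleotide genes 19 rose (median log2 fold change 0.48), led by thymidine kinase Tk1 (2.06) and the ribonucleotide reductase subunits Rrm2 (1.68) and Rrm1 (1.08), with the sliding clamp Pcna at 622 ± 59.2 against 458 ± 59.3 CPM (SD, n = 8). Tk1 stood at 191 to 296 CPM in members and 44.4 to 86.7 CPM in other wells. Of 19 licensing genes 11 rose (median 0.39), among them Mcm10 (1.33) and Dbf4 (1.33), the activator of the Cdc7 kinase. Against the wells without any Mki67 count 11 fork and 3 licensing genes were called higher (medians 0.45 and 0.35). At a limit of 100 CPM 17 fork and 8 licensing genes were called higher, and 1 licensing gene lower. The helicase subunit Mcm6 stood at 879, 986, 875 and 743 CPM in the members of control mice 1 to 4 and 1057, 1086, 1132 and 996 CPM in depleted mice 1 to 4, against 996, 1188, 890 and 1075 and then 1209, 1037, 1185 and 1060 CPM in the other wells. The classes overlapped and Mcm6 was not called (log2 -0.12, SE 0.06, edgeR adjusted p = 0.309). Wells outside the choice also carried replication RNA, since 221 other wells, 16.5% to 56.2% of those of a mouse, exceeded the median member of their mouse in the summed replication lists. For the summed mitotic lists this held for 5 other wells, at most 1.05% of a mouse.

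Members were not all alike in this respect. Across the 48 to 84 members of a mouse, Spearman's rho of Mki67 with the summed mitotic lists was 0.53 to 0.79 in the 8 mice and with the summed replication lists -0.56 to -0.10, both within the same wells and over the same totals. When the members of each mouse were ranked by Mki67 and divided into 3 equal parts, the median mitotic level over mice was 4914, 8519 and 16408 CPM from the lowest to the highest part. The median replication level was 13441, 12648 and 7221 CPM in the same order. The 410 wells with no Mki67 count had medians of 2913 CPM mitotic and 7069 CPM replication RNA, and the 375 wells under the limit 3140 and 7240 CPM, so those sets lay close together.

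**Figure D4:**
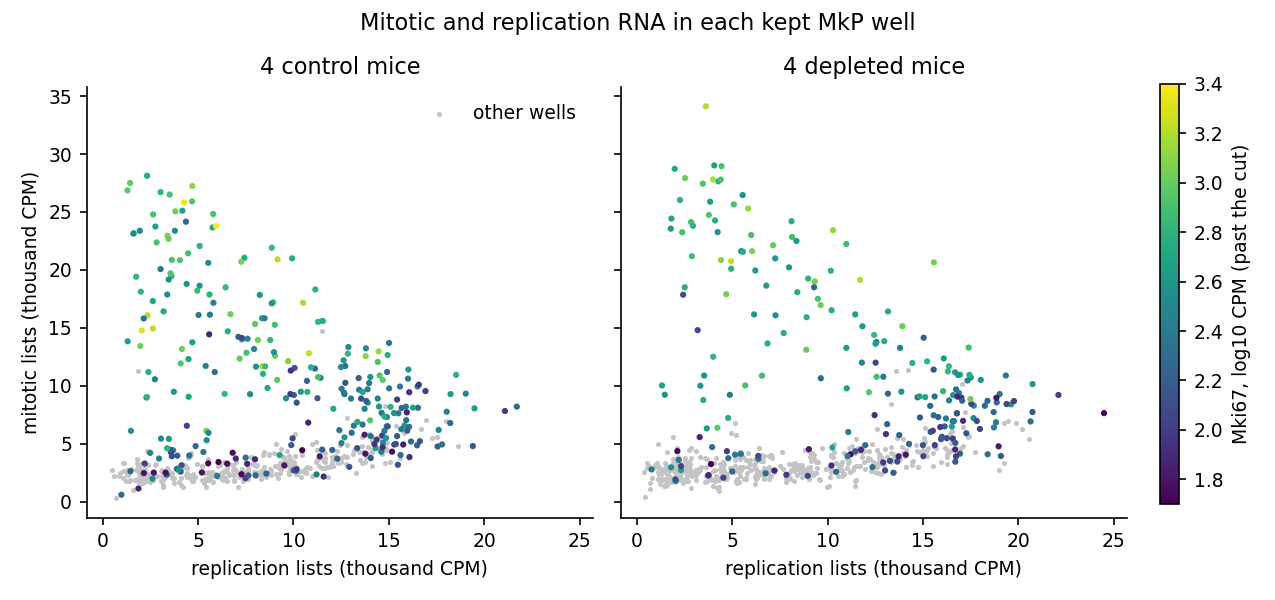
Summed CPM of 76 mitotic genes (y axis, in units of 1000 CPM) against 43 replication genes (x axis, same units) in each kept MkP well, control mice left and depleted mice right. Grey points are the other wells and colours give log10 Mki67 CPM of the 504 members, whose highest values lie at high mitotic and low replication level.

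The list of G1 cyclin and E2F genes was divided. Of its 17 genes 6 rose, namely E2f2 (log2 fold change 2.46), E2f7 (1.74), Ccne1 (1.11), Ccne2 (0.98), E2f8 (0.96) and Cdk4 (0.10), and 4 fell, namely Mycn (-0.63), the D-type cyclin Ccnd2 (-0.61), Myc (-0.53) and Cdk6 (-0.21). Ccnd2 stood at 378 to 556 CPM in members and 619 to 828.5 CPM in other wells without overlap (SE 0.04, edgeR adjusted p = 1.03e-05). Of 13 tested CDK inhibitor and quiescence genes Cdkn2d rose (0.83), and Txnip (-0.59), Btg2 (-0.56) and Btg1 (-0.34) fell. Of 10 p53 targets Bax (-0.27) and Trp53inp1 (-1.57) fell. Against the wells without any Mki67 count Txnip (edgeR adjusted p = 0.253) and Btg2 were no longer called, and neither were Ccne1, Ccne2, E2f8, Mycn, Cdk4, Btg1 and Trp53inp1. Cdk4, Btg1 and Trp53inp1 also lost their calls when single mice were left out, and Bax without control mouse 1. Some of these genes were added to the naming rule after their values were seen, so that small counts could be spelled out.

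The megakaryocyte and platelet list held no gene called by edgeR between the classes. Of 28 megakaryocyte and platelet genes 26 were tested and 0 were called in either direction by edgeR (median log2 fold change -0.06; 0 higher and 1 lower by DESeq2). Pf4, a platelet chemokine, stood at 2461, 1726, 2200 and 3967 CPM in the members of control mice 1 to 4 and 1588, 1600, 2521 and 2183 CPM in depleted mice 1 to 4. In the other wells it stood at 1631, 2810, 2975 and 3474 CPM and then 1210, 2094, 1248 and 1498 CPM. It was higher in members in 5 of 8 mice (log2 0.19, SE 0.19, edgeR adjusted p = 0.664). Itga2b, the integrin chain CD41, stood at 1307 ± 243 against 1393 ± 113 CPM (SD, n = 8, edgeR adjusted p = 0.737). Pf4 was at 50 CPM or more in 71.1% ± 8.15 of members and 71.6% ± 10.8 of other wells, Vwf in 47.5% ± 7.18 and 45.5% ± 9.20, and the erythroid factor Klf1 in 34.8% ± 10.4 and 32.6% ± 6.16 (SD, n = 8, exact permutation, adjusted p from 0.694 to 0.914). These misses of the threshold leave room for differences of some points, since the paired differences varied between mice with SDs of 9.99 to 10.95 points. Members with Klf1 and without Pf4 numbered 79 (15.7%), and members with both numbered 92 (18.3%), against 126 (16.1%) and 131 (16.7%) of the other wells.

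Some lineage factors and stem cell genes were lower in the members. Of 17 lineage factors 6 fell and 0 rose (median log2 fold change -0.20), namely Runx1 (-0.42), Ldb1 (-0.41), Etv6 (-0.40), Meis1 (-0.39), Gata2 (-0.33) and Nfe2 (-0.20). Runx1, a factor of megakaryocyte and stem cell genes, stood at 116, 149, 103 and 139 CPM in the members of control mice 1 to 4 and 149, 160, 148 and 112 CPM in depleted mice 1 to 4. Its other wells stood at 163, 194, 162 and 186 CPM and then 213, 193, 165 and 198 CPM, so the classes did not overlap (SE 0.07, edgeR adjusted p = 0.0054). Gata2, which is known for its role in early progenitors, was lower in 8 of 8 mice (511 ± 94.7 against 665 ± 131 CPM, SD, n = 8, edgeR adjusted p = 0.0021), but not called against the wells without Mki67 counts (adjusted p = 0.33). Etv6, Ldb1 and Nfe2 lost their calls there as well, Ldb1 and Nfe2 also when single mice were left out. Of 19 tested HSC genes 4 fell and 0 rose (median -0.41), namely Procr (-5.03), Mycn, Pdzk1ip1 (-0.51) and Esam (-0.41). Against the wells without Mki67 counts 1 gene of the HSC list was called lower. Procr, the endothelial protein C receptor of stem cells, was scarce in the sums of all 8 mice, at 0.0104 to 1.23 CPM in members and 0.218 to 4.97 CPM in other wells, was lower in 7 of 8 mice and lost its call in 6 of the 8 fits that left out a mouse.

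**Figure D5:**
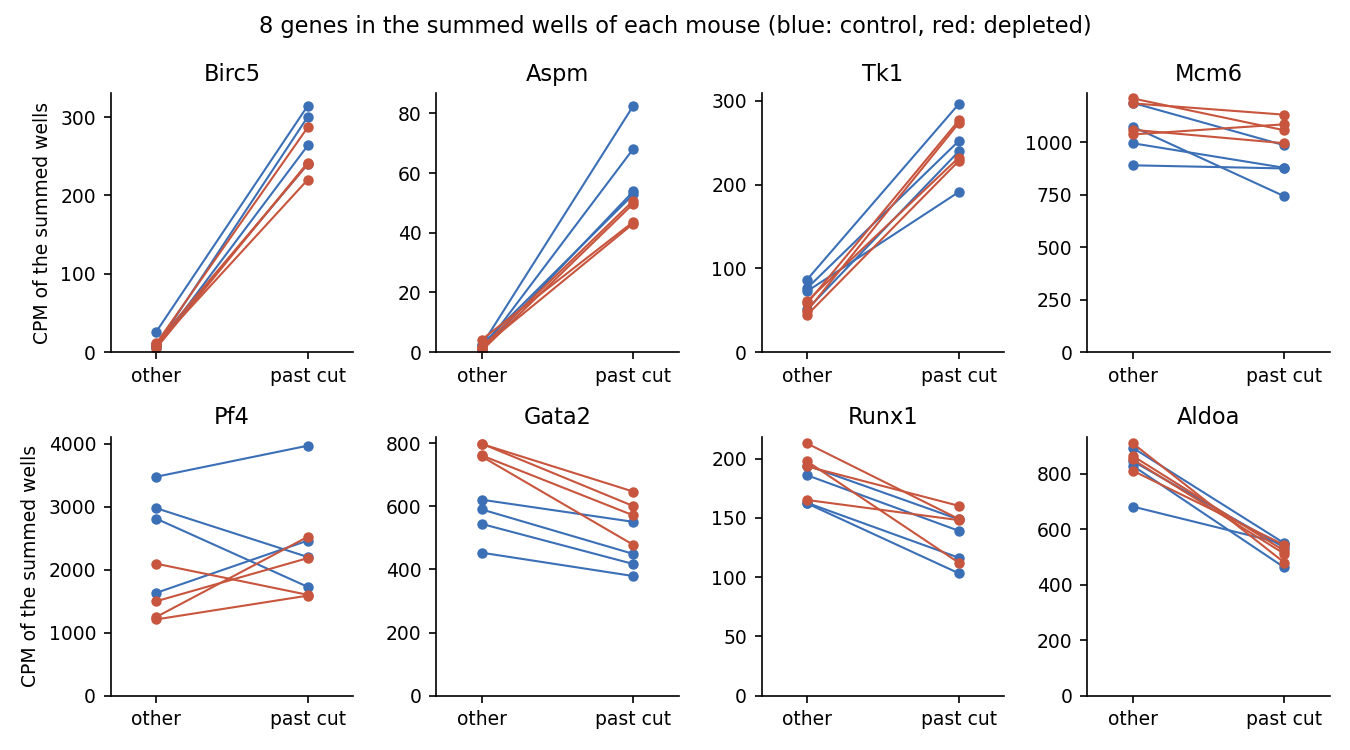
CPM of 8 genes in the summed other wells and the summed members of each mouse, with a line per mouse (blue control, red depleted) and a linear axis from 0. Birc5, Aspm and Tk1 are higher and Gata2, Runx1 and Aldoa lower in the members of all 8 mice, while the lines of Mcm6 and Pf4 cross.

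Immediate early genes fell in part, with 5 of 11 lower and 0 higher (median log2 fold change -0.47). These were Zfp36 (-0.87), which destabilises AU-rich RNA, and the AP-1 or related genes Junb (-0.78), Ier2 (-0.63), Fosb (-0.51) and Jun (-0.30), at mean levels that varied widely between mice (Zfp36 109 ± 54.3 against 211 ± 121 CPM, SD, n = 8). Against the wells without any Mki67 count 3 genes of this list were called lower. Of 15 glycolysis genes Pgk1 (0.25), Gapdh (0.20) and Tpi1 (0.17) rose and Hk2 (-0.88), Aldoa (-0.65), Pfkl (-0.26) and Ldha (-0.11) fell. Against the wells without any Mki67 count 0 glycolysis genes were called higher and 2 lower. Aldoa stood at 462 to 550 CPM in members and 682 to 910 CPM in other wells without overlap (SE 0.06, edgeR adjusted p = 0.0001). Of 83 tested ribosomal protein genes 43 fell and 2 rose, Rpl7a (0.08) and Rps27l (0.15), with a median of -0.10, and both higher calls were lost against the wells without Mki67 counts. Of 15 tested mitochondrially encoded genes mt-Nd1 rose (0.22), and of 20 ribosome biogenesis genes Gnl3 (-0.29) and Nop2 (-0.23) fell. In the fit against wells without Mki67 counts, 0 mitochondrially encoded genes were called, and 1 ribosome biogenesis gene was called lower. Of 22 interferon genes 0 were called by edgeR, of which 6 had a positive fold change (median -0.14), beside 7151 of 15988 over all genes. The lists of erythroid (18 tested), myeloid (7), neutrophil (2), mast and basophil (4), B cell (2), T and NK cell (1) and macrophage (6) genes held 0 calls by edgeR. DESeq2 called 4 erythroid and 2 macrophage genes lower and none of the myeloid, neutrophil, mast, B or T cell genes.

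The largest falls by the naming rule were less of a theme. They were the lysosomal protease Ctsf (log2 fold change -2.01), Tcp11l2 (-1.77), Ggt5 (-1.19), the collagen hydroxylase P3h1 (-1.19), Dlgap4 (-1.10), the kinesin light chain Klc4 (-1.07), Ccdc171 (-1.03), Tgif1 (-1.02), the histone methyltransferase Kmt5b (-0.96) and Gstm7 (-0.93). All were called and lower in 8 of 8 mice because the rule took only such genes, with edgeR adjusted p from 0.0024 to 0.0232. Tcp11l2 stood at 22.0 ± 8.47 CPM in members and 74.0 ± 25.7 CPM in other wells (SD, n = 8). Against the wells without Mki67 counts P3h1 and Dlgap4 were still called and the other 8 were not, and Ctsf also lost its call without control mouse 1, depleted mouse 2 or depleted mouse 4.

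Markers of other cell types were summed in each class. Erythroid markers held 205 to 890 CPM in members, with a median of 313 CPM, and 147 to 597 CPM in other wells, with a median of 433 CPM. The highest member value was that of control mouse 3, where 1 well gave 31.1% of it, and 0 of the 5 markers were called by edgeR. Summed over 4 myeloid markers (Mpo, Elane, Prtn3, Ctsg), members held 47.0 to 69.3 CPM in 7 mice and 589 CPM in control mouse 2, where 1 well gave 92.4% of it. Over 4 neutrophil markers they held 0.108 to 5.71 CPM in 7 mice and 47.1 CPM in control mouse 4, where 1 well gave 95.5%. B cell markers summed to 13.9 to 42.1 CPM in members and 33.3 to 88.4 CPM in other wells, and macrophage markers to 9.77 to 77.9 and 34.0 to 128 CPM. Mast and basophil markers summed to 48.2 to 137 CPM in members and reached 911 CPM in the other wells of depleted mouse 2. There 1 well gave 50.5% of it, and the next highest mouse had 110 CPM in its other wells. The T cell genes Cd3e and Cd3g had 0 counts in the members of all mice, while Nkg7 stood at 386 ± 62.6 against 408 ± 59.6 CPM (SD, n = 8). No doublet caller was run, and whether each well held 1 cell was not tested.

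Clonal barcodes were read in the same wells. A barcode was called present in 90.3% ± 5.74 of members and 88.1% ± 5.804 of other wells, higher in members in 7 of 8 mice (exact permutation, adjusted p = 0.694). The exception was depleted mouse 3, with 78.9% against 90.8%, and without it the difference was 4.28 points (exact permutation, adjusted p = 0.0352). Leaving out the only exception gives all remaining differences the same sign. That choice puts the unadjusted p at its lowest, so no conclusion is drawn from this fit. The Shannon index, the deposited score of barcode diversity in a well, averaged 0.347 ± 0.358 against 0.368 ± 0.353 in barcoded wells (SD, n = 8, exact permutation, adjusted p = 0.694).

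Within the members, depletion was compared with control over 4 sums each. Mki67 stood at 410, 574, 360 and 391 CPM in control and 386, 340, 345 and 481 CPM in depleted mice, with overlap. Summed replication genes were higher in depleted members, at 10406, 9972, 9695 and 8712 CPM in control mice 1 to 4 and 11411, 10505, 11871 and 11101 CPM in depleted mice 1 to 4. All depleted values lay above all control values, a log2 difference of 0.21 (exact permutation p = 0.0286, adjusted p = 0.0857 over 3 measures). After adjustment this did not pass the threshold. The other wells held 7444 to 8826 CPM of these genes in control and 7748 to 9125 CPM in depleted mice, with overlap. Summed mitotic genes differed by 0.08 on the log2 scale (exact permutation, adjusted p = 0.314), and the ratio of mitotic to replication level by -0.14 (adjusted p = 0.3). In the members 15 of 19 licensing and 17 of 24 fork genes had a positive fold change (medians 0.17 and 0.14), and in the other wells 6 of 19 and 5 of 24 (medians -0.10 and -0.13), beside 0.01 over all genes in each fit. Over all genes 8114 of 15982 were positive in the members and 8571 of 16626 in the other wells. No gene of the licensing and fork lists was called, and both fits rest on the same mice.

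Depleted against control members gave 0 called genes by edgeR (0% of 15982 tested), where 1513 genes had an unadjusted p under 0.05 and DESeq2 called 237. Genes with the lowest p, given as not passing, were Fam126a (log2 1.20), Ythdf3 (1.42) and the adhesion receptor Adgrg3 (0.58) on the higher side and the histone gene H2ac8 (-1.09), Rps25 (-0.54) and Rpl30 (-0.66) on the lower side, with edgeR adjusted p of 0.211 to 0.216. H2ac8 stood at 146, 194, 158 and 196 CPM in control and 76.8, 97.9, 105 and 59.2 CPM in depleted members, without overlap. In the other wells H2ac8 stood at 27.2 to 41.3 and 19.7 to 39.5 CPM, with overlap. Requiring a mean of at least 8 CPM let 15 genes pass, 4 higher and 11 lower, and 9 of the 15 were ribosomal protein genes or mitochondrial ribosomal RNAs. The share of such genes among all 9113 tested at that level was not counted. Of 83 ribosomal protein genes 80 had a negative fold change in the members (median -0.40) and 77 in the other wells (median -0.39). Over all genes 7868 of 15982 were negative in the members and 8055 of 16626 in the other wells. Of 23 interferon genes 21 had a positive fold change in the members (median 0.51) and 19 of 22 in the other wells (median 0.33). Over all genes 8114 of 15982 and 8571 of 16626 were positive.

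The other wells also gave 0 called genes by edgeR (0% of 16626, 1826 at an unadjusted p under 0.05, 478 by DESeq2). There Ypel3 (log2 1.65), Aplp2 (0.90), Fam126a (0.95), Rpl31 (-0.72), Rps25 (-0.52) and the licensing inhibitor Gmnn (-0.55) had the lowest p and did not pass. Gmnn had a log2 fold change of 0.12 in the members. The test of whether depletion acted differently in members and other wells called 0 of 18183 genes by edgeR (0%, 886 at an unadjusted p under 0.05, 195 by DESeq2). Lowest in p there were Pex5 (0.58), Fbxl4 (1.19) and Dnajc10 (0.57), with larger effects in members, and H2ac8 (-0.83), Sugp2 (-0.48) and Tcf12 (-0.76), each with an edgeR adjusted p of 0.99. The mast and basophil marker Mcpt8 (log2 -17.5) was the 1 gene that passed when a mean of at least 8 CPM was required, named after its value was seen. The markers of its group were high in the other wells of depleted mouse 2, as given above. The part of those wells in this call was not tested.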

How the data were processed

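Single sorted bone marrow cells were sequenced by Smart-seq2 with Nextera libraries, per the labels' protocols. The authors deposited raw read counts per gene symbol and well, and a table with barcode read counts, a barcode call and a score, the Shannon index, per well. Trim Galore 0.5, STAR 2.6.0 and HTSeq 0.6.1 are named in the submitters' processing notes, while a build and an annotation were not given in the sources used here. Counts of 107 symbols on more than 1 row were added. Of 1536 MkP columns 1535 matched a sample title, and 1535 columns of other populations or without a match were not used, so the planned comparison with HSC and CFU was not run.

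Kept wells held 24105 to 6062902 counts. Members and gene lists were chosen with earlier results of these data known. CPM are counts over the column total. Sums of 86968934 to 200535311 counts per mouse and class were compared by edgeR 4.0.16 in R 4.3.3 (TMM, default filter, quasi-likelihood test, Benjamini-Hochberg adjustment, mouse as block for classes). The pairing by mouse comes from the code in the titles, which the deposited mouse column repeats. DESeq2 1.42.0 was an alternative, with other limits, filters, thinning and left-out mice. Per-mouse values were compared by exact two-sided permutation of labels or signs. Adjustment covered 9 well measures, of which 1 is not reported here. SE is the size of the fold change over the square root of F. Intervals cover counting error only, and reads without molecular identifiers are not independent molecules. Overlapping, antisense and near-identical genes, such as ribosomal protein genes, are uncertain one by one. The edgeR fits were tested on simulated counts.

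Named genes were Mki67, Birc5 and Aspm, the 10 highest and 10 lowest called fold changes with a mean of 20 CPM and one direction in 8 mice (Gm, Rik and -ps symbols left out), up to 4 genes of a list by size and level, and, for treatment, the 3 lowest p per direction. For lists with few calls, all called genes were added after seeing values, and some listed genes without a call are left out. Python 3.11.15, SciPy 1.17.1 and matplotlib 3.10.9 served for the rest.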

Additional observations from a re-analysis of the deposited data

Results flagged for a closer look

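In 52 sets of 4 mice (shares, well measures and marker levels by class and treatment), 3 held a mouse far from the other 3, where chance gives about 1 in 20. Birc5 in the other wells of control mouse 1 stood at 25.9 CPM, against 5.81 to 9.18 CPM in the other 3 control mice. A barcode was called in 78.9% of the members of depleted mouse 3, below the other depleted mice. The mean Shannon index of barcoded members was 0.0857 in depleted mouse 1, apart from the other depleted mice.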

How the results depend on the processing

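The share difference of -12.2 points kept its sign under every alternative run (-15.1 to -6.54 points, exact permutation p from 0.0286 to 0.114). It passed the threshold at a limit of 200 CPM (-10.0), with Birc5 in place of Mki67 (-9.40), and after thinning to 20000 counts (-13.1), where any Mki67 read was enough. After thinning to 100000 counts it did not pass (-11.8). With a mouse left out it ran from -15.1 to -9.48 points, and of these 8 fits it passed without control mouse 3 (-15.1) and in none of the other 7. The 1280 genes called between members and other wells became 2358 by DESeq2, 595 against wells without Mki67 counts, 781 with no replicate block for the mouse, and 908 to 1108 with a mouse left out. The 0 calls for treatment became 237 in members, 478 in other wells and 195 for their difference by DESeq2, and 15, 14 and 1 with a mean of at least 8 CPM, and stayed 0 with any mouse left out or with no replicate block for the difference. The Pf4 share difference of -0.484 points was 0.713 at a limit of 100 CPM and -2.47 to 2.17 with a mouse left out, that of Vwf -0.0769 to 4.50, that of the Shannon index -0.0370 to 0.0011 and that of barcode presence 0.985 to 4.28. Pf4 turned to a log2 fold change of -0.023 against wells without Mki67 counts. Of 91 named genes called between classes, 44 stayed called under all alternatives, 36 lost the call against wells without Mki67 counts, 28 with no replicate block and 19 with some mouse left out. The cause was not tested. Fits against wells without Mki67 counts or with a mouse left out held fewer wells or mice. The fit with no replicate block used the same sums. At 4 mice a group, an exact permutation p cannot go below 0.0286.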
